A study of Mus musculus with 6 samples.

Results

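Glucose enters most mammalian cells down its gradient through facilitative transporters of the Slc2a (GLUT) family, and hexokinases then phosphorylate it to glucose 6-phosphate, which cannot leave through the transporters. The cell thus sets both the rate of entry and the trapping step through the members of these 2 families that it expresses. In fibroblast-like cells GLUT1, encoded by Slc2a1, is the usual basal transporter, and HK1 and HK2 are the hexokinases that bind mitochondria. The 10 genes described here are the transporter genes Slc2a1, Slc2a3, Slc2a4, Slc2a6, Slc2a8, Slc2a10 and Slc2a12 and the hexokinase genes Hk1, Hk2 and Hkdc1. They were chosen by name, and the estimated counts and TPM (a level per transcript length, scaled to the same total in every library) of all their annotated transcripts were summed per gene. They are 10 of the 35968 genes with a transcript in the data. Of these, 8 passed the filter on low counts, and Slc2a12 and Hkdc1 did not.

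RNA was sequenced from MS-5, a mouse bone marrow stromal line that supports haematopoiesis, either grown alone (MS-5 only, libraries MO1, MO2 and MO3) or after 24 hr in contact with SKM-1, a human acute myeloid leukaemia (AML) line (co-culture, libraries MC1, MC2 and MC3). Co-cultures held 4 SKM-1 cells per stromal cell, and both groups grew in the same serum-supplemented medium. The stromal layer was washed and mildly trypsinised to remove leukaemic cells before it was harvested. The model is thus 1 mouse line exposed to 1 human line, and no source states whether the 3 libraries of a group came from separate cultures, so that p-values measure the spread between these libraries. In bulk RNA, fewer cells of a type and less RNA per cell cannot be told apart.

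Total estimated counts ran from 23978881 to 27182453 in MS-5 only and from 26258451 to 35694987 in co-culture. All 12 listed stromal markers, such as Col1a1 and Pdgfrb, were detected in every library, with summed levels of 13244 to 14957 CPM (counts scaled by library size and TMM factor) in MS-5 only and 14908 to 17596 CPM in co-culture, and 0 of the 12 were called by edgeR or by DESeq2 (1 at an unadjusted edgeR p under 0.05). The 15 listed leukocyte markers summed to 26.6 to 32.7 CPM in MS-5 only, where the actin-bundling gene Lcp1 gave most of the sum. Their sum was 78.8 CPM in MC1, 337 CPM in MC2 and 79.0 CPM in MC3. The myeloid factor Irf8 and the receptor Kit had 0 counts in all 3 libraries of MS-5 only. MO2 and MC3 stood apart from the other 4 libraries on the second principal component (25.6% of the variance), and mitochondrial transcripts held 6.03% and 5.89% of their counts against 10.5% to 13.1% in the other 4. Results are therefore also given without MC2 and without MO2 and MC3 where they differ.

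The first comparison asked which members changed when the stromal cells shared a dish with SKM-1. Of the 8 members tested, 4 were higher in co-culture, Slc2a1, Hk2, Slc2a3 and Slc2a6, and 0 were lower (edgeR quasi-likelihood test, Benjamini-Hochberg adjusted p under 0.1). Over all 13221 genes tested, 3.71% were called higher and 0.666% lower, 4.38% in all. The same 4 members were those whose CPM values did not overlap between groups, which was true of 11.6% of all genes in the upward and 9.6% in the downward direction. Slc2a3 and Slc2a6 passed the count filter only through the co-culture libraries, where they are high, so that their direction was set by the filter. The other 2 calls, Slc2a1 and Hk2, do not depend on it. When any 1 library of MS-5 only was left out alone, 0 of the 8 members and 0 of all genes passed, with log2 fold changes of 1.34 to 1.46 for Slc2a1 and 0.91 to 1.34 for Hk2. Without both MO2 and MC3, 4 members and 1702 genes passed. Without MC1 or without MC2, 2 members passed, and without MC3 4 did, where 283, 281 and 549 of all genes were called. DESeq2's Wald test called 4 of the 8 higher, where it called 6.88% of all genes higher and 2.71% lower, and limma on log2(TPM + 0.5) called 2, Slc2a1 and Slc2a6, where it called 2.56% higher and 0.129% lower.

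**Figure D1:**
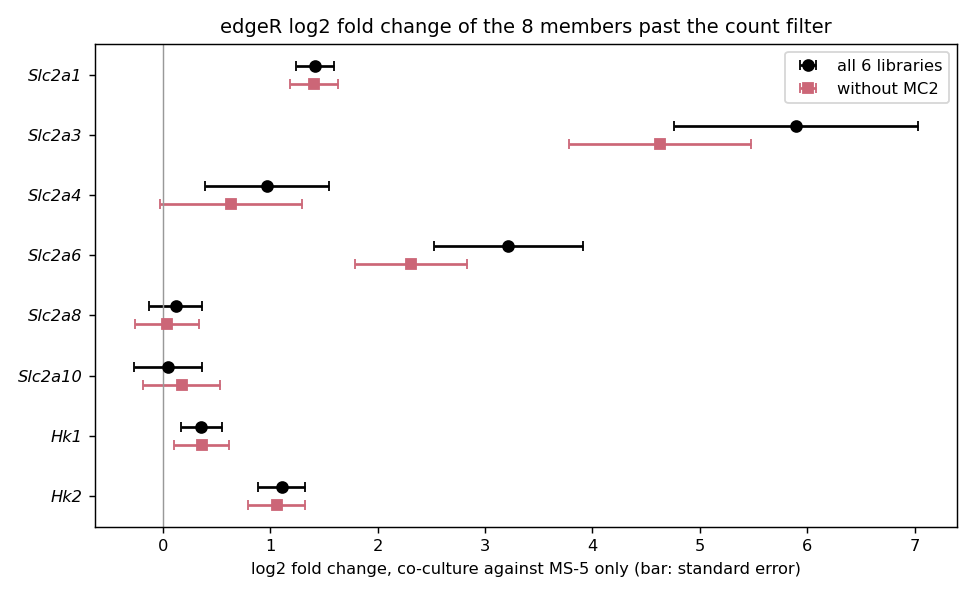
Log2 fold change of co-culture against MS-5 only for the 8 members tested, with all 6 libraries (black circles) and without MC2 (red squares); bars are the standard error from edgeR. Slc2a1 and Hk2 lie at nearly the same place in both fits, and Slc2a3 and Slc2a6 move from 5.90 to 4.63 and from 3.22 to 2.31.

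Promoter sequences are shown for Slc2a1 and Hk2, the 2 members that rose without standing out in MC2. That of Slc2a8, a transporter gene whose groups overlapped, is shown beside them and was picked as an example. The sequences are RefSeq stretches on GRCm38.p6, in the direction of transcription. Each ends just before an annotated exon, or with a motif that crosses into it. Promoters of 8 of the 10 members were matched. Capitals mark ACGTG and GCGTG on either strand (CACGT and CACGC are the same letters on the other strand), the core that hypoxia-inducible factors are known to recognise.
Slc2a1: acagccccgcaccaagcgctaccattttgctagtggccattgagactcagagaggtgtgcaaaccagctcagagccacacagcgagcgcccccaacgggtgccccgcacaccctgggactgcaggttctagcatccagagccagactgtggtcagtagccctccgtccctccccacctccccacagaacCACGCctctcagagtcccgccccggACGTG
Hk2: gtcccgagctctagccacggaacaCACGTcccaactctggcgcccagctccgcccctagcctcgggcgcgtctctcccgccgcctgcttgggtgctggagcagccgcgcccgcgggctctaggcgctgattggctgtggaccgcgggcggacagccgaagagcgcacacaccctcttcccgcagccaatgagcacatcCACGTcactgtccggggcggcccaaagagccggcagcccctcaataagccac
Slc2a8: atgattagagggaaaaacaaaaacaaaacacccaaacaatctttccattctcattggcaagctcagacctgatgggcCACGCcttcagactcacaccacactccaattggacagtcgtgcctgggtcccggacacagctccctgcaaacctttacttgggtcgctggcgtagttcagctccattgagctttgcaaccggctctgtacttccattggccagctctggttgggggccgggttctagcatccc
The Slc2a1 stretch is chr4:119108495-119108713 on the plus strand, the Hk2 stretch is chr6:82774455-82774704 on the minus strand and the Slc2a8 stretch is chr2:32982084-32982333 on the minus strand. Slc2a1 held 1 ACGTG, starting 36 bases before the RefSeq start site, and 1 GCGTG. Hk2 held 2 ACGTG and no GCGTG, and Slc2a8 held 1 GCGTG and no ACGTG. Of the other members matched, Slc2a6 held 4 GCGTG and no ACGTG, Slc2a10 held 1 ACGTG, Hkdc1 held 1 GCGTG and Slc2a12 held neither. One of the 2 promoters of Hk1 held 2 ACGTG and 3 GCGTG, and the other held neither. Among 32851 RefSeq promoters of 300 bases, 19.6% held ACGTG, 32.4% held GCGTG and 43.8% held either, and the longer motif CACGTG, which contains ACGTG, was in 7.15% and in none of these 3. These are matches of letters, and binding was not measured.

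Slc2a1 encodes GLUT1, the transporter of basal glucose uptake (chr4:119108711-119137983, plus strand, GRCm38). It had 43.9 CPM in MO1, 38.3 CPM in MO2 and 45.0 CPM in MO3, and 134 CPM in MC1, 113 CPM in MC2 and 92.2 CPM in MC3. The lowest co-culture library was above the highest library of MS-5 only, and the spread within co-culture was the wider. The mean rose from 42.4 ± 3.60 to 113 ± 20.9 CPM (SD, n = 3), which is 2.67-fold, with a log2 fold change of 1.42 (SE 0.17, edgeR adjusted p = 0.0734). MC3 against MO2 alone gave a log2 difference of 1.27 in CPM, and the log2 fold change without these 2 libraries was 1.50. On the TPM scale the gene read 17.6, 23.7 and 17.4 in MO1 to MO3 and 54.0, 44.7 and 58.5 in MC1 to MC3. No 31-base word of its transcripts occurs in another gene.

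The rise of Slc2a1 was shared by its 2 main annotated transcripts. Slc2a1-201 (3260 bases), the full-length coding form, held 59.5% to 61.9% of the gene's TPM in MS-5 only and 52.3% to 60.9% in co-culture, so that the groups overlapped. Slc2a1-204 (2241 bases), annotated as a target of nonsense-mediated decay, held 37.1% to 40.5% and 38.1% to 47.7%. In TPM the first was 2.52 times and the second 2.92 times as high in co-culture as in MS-5 only. Antisense genes Gm12867 and Gm12868 overlap the locus, and the libraries are described as stranded.

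Hk2 encodes hexokinase 2, the isoform known to be inducible (chr6:82725025-82774454, minus strand). It had 20.3 CPM in MO1, 16.3 CPM in MO2 and 11.4 CPM in MO3, and 34.3, 36.3 and 32.8 CPM in MC1, MC2 and MC3. The 3 co-culture libraries were close to each other and all above MS-5 only, where the spread was wider. The mean rose from 16.0 ± 4.44 to 34.5 ± 1.79 CPM (SD, n = 3), 2.16-fold, with a log2 fold change of 1.11 (SE 0.22, edgeR adjusted p = 0.0779). Leaving out MC1 gave an adjusted p of 0.17 at a log2 fold change of 1.10, and leaving out MC2 gave 0.189 at 1.06. MC3 against MO2 alone differed by 1.00 on the log2 scale. The call was also lost with limma on log2(TPM + 0.5), where the log2 fold change was 1.13 and the adjusted p was 0.341.

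Some of the Hk2 signal in co-culture fell on a transcript that was at or near 0 in MS-5 only. Hk2-201 (5513 bases, of which 2751 are coding) read 4.04, 5.05 and 2.22 TPM in MO1 to MO3 and 6.83, 5.79 and 9.92 TPM in MC1 to MC3. Hk2-204 (2792 bases, of which 2688 lie in the coding sequence of Hk2-201 and 3 in its untranslated regions) held 2.26% of the gene's TPM in MC1, 29.3% in MC2 and 6.38% in MC3. Its share was thus highest in MC2, the library with the highest leukocyte marker sum, and the part of the leukaemic cells in it was not tested. With Hk2 counted from Hk2-201 only, an alternative added after the values were seen, the log2 fold change was 1.00 (edgeR adjusted p = 0.0894).

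**Figure D2:**
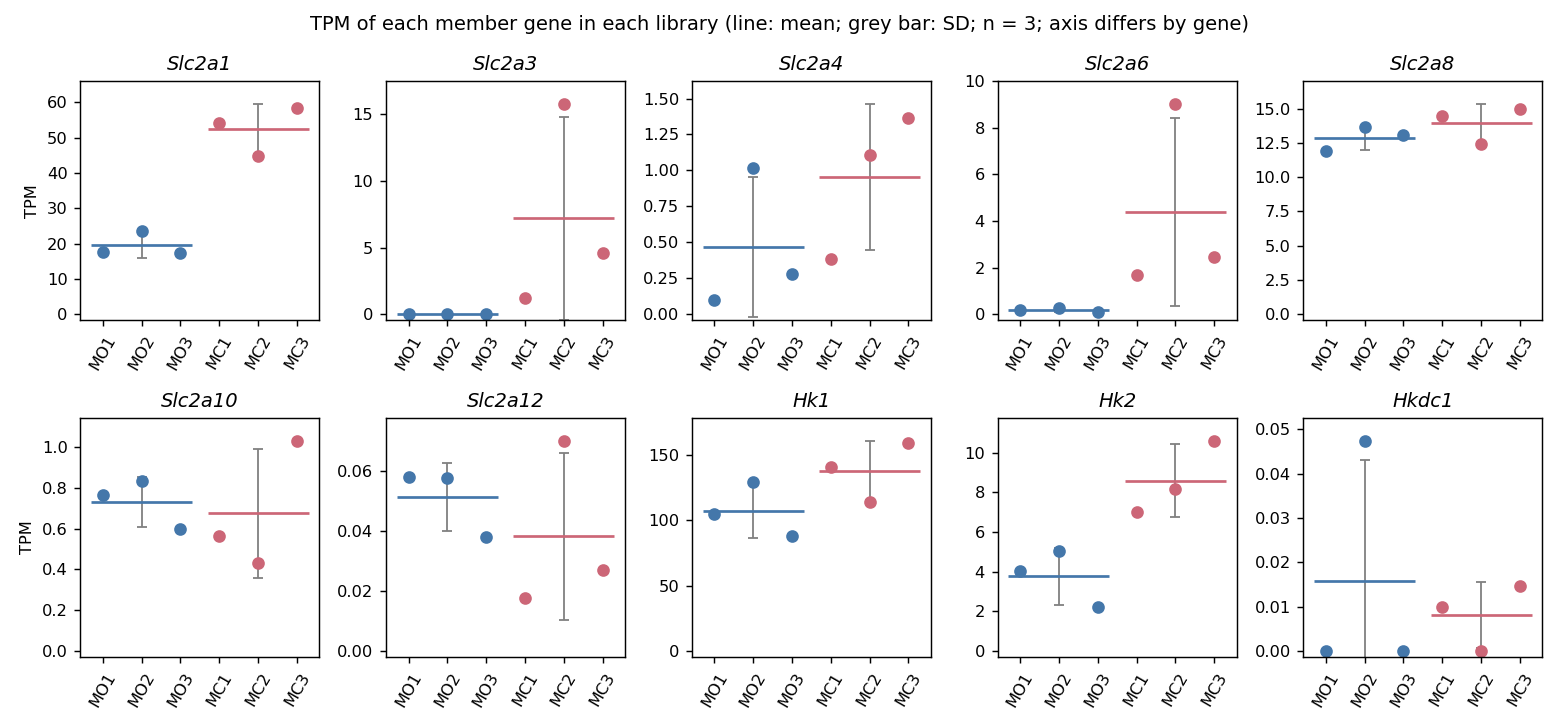
TPM of each of the 10 genes in the 3 MS-5 only libraries (blue) and the 3 co-culture libraries (red); the line is the mean, the grey bar the SD (n = 3), and each panel has its own axis. Slc2a1 and Hk2 are separated in all 3 co-culture libraries, Slc2a3 and Slc2a6 are highest in MC2, and the other genes overlap between groups.

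Hk1 encodes hexokinase 1, the widely expressed isoform (chr10:62268855-62379908, minus strand), and was the most abundant of the 10 genes per length. It read 105 TPM in MO1, 129 TPM in MO2 and 87.8 TPM in MO3, and 141, 114 and 159 TPM in MC1, MC2 and MC3. In TPM the groups overlapped because MC2 lay below MO2, and in CPM because MC3 (340) lay below MO1 (355). In CPM the means were 314 ± 38.2 and 403 ± 64.7 (SD, n = 3), with a log2 fold change of 0.36 (SE 0.19, edgeR adjusted p = 0.47). With a covariate that sets MO2 and MC3 apart, the log2 fold change was again 0.36 and the adjusted p was 0.0513. In that fit 13.9% of all genes were called higher and 16.4% lower.

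Hk1 transcripts differed little in their proportions. Hk1-202 held 47.0%, 41.5% and 44.7% of the gene's TPM in MO1 to MO3 and 39.1%, 39.9% and 40.2% in MC1 to MC3, so that the groups did not overlap. Hk1-201 held 34.2% to 39.8% in MS-5 only and 38.8% to 42.3% in co-culture. Hk1-205 was at 18.1% to 18.8% and 18.6% to 20.8%. These shares are descriptions and were not tested.

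The Hk2 to Hk1 ratio asked whether the hexokinases moved differently. The log2 ratio of Hk2 to Hk1 TPM was -4.69, -4.68 and -5.30 in MO1 to MO3 and -4.34, -3.80 and -3.91 in MC1 to MC3. All 3 co-culture libraries lay above MS-5 only. The mean went from -4.89 to -4.02, a difference of 0.87 (exact permutation test, two-sided, p = 0.1, the smallest that 3 against 3 libraries allow). With Hk2-201 alone the difference was 0.66. Hk1 was by far the more abundant gene in both groups.

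Hkdc1, a hexokinase-related gene next to Hk1, was near the limit of detection. It had 0, 3 and 0 estimated counts in MO1 to MO3 and 1, 0 and 1 in MC1 to MC3. No fold is given at this depth.

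Slc2a3 encodes GLUT3, a transporter of high affinity known from neurons and from blood cells (chr6:122727809-122801640, minus strand). It had 1, 2 and 0 estimated counts in MO1 to MO3 and 27, 131 and 42 in MC1 to MC3, so that all co-culture libraries were above MS-5 only and MC2 was the highest. The log2 fold change was 5.90 (SE 1.13, edgeR adjusted p = 0.0745), and the value of so low a gene depends on how the fit treats counts near 0. As a ratio of summed counts, corrected for library size, co-culture was 57.4 times MS-5 only, with a 95% exact interval of 19.4 to 281 that covers counting error only. Without MC2 the log2 fold change was 4.63 (edgeR adjusted p = 0.0891), and without MO2 and MC3 it was 6.93 (adjusted p = 0.0793). With limma on log2(TPM + 0.5) it was 3.35 with an adjusted p of 0.102, past the threshold no longer.

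The co-culture signal of Slc2a3 was not on its full-length transcript. Slc2a3-201 (3959 bases, of which 2480 are untranslated) read 0.0113, 0.0278 and 0 TPM in MO1 to MO3 and 0.0248, 0 and 0.0325 TPM in MC1 to MC3, which overlap. Slc2a3-203 (1321 bases, of which 1318 lie in the coding sequence of Slc2a3-201) was listed at 0 in all 3 libraries of MS-5 only and at 0.632, 3.40 and 1.16 TPM in MC1 to MC3. Slc2a3-208 (315 bases, 275 of them in that coding sequence) was likewise listed at 0 in MS-5 only and at 0.571, 12.4 and 3.36 TPM in MC1 to MC3. Its TPM rested on 2.32, 39.2 and 9.54 estimated counts in MC1 to MC3, which weigh heavily per length in so short a form. Slc2a3-203 and Slc2a3-208 are annotated as targets of nonsense-mediated decay. Of the gene's 31-base words, 2.38% also occur in other genes.

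Slc2a6 encodes GLUT6, a transporter known from leukocytes and spleen (chr2:27021363-27027998, minus strand). It had 8, 9 and 4 estimated counts in MO1 to MO3 and 49, 117 and 40 in MC1 to MC3. The groups did not overlap, and MC2 was again the highest. The log2 fold change was 3.22 (SE 0.69, edgeR adjusted p = 0.0865), and the ratio of summed counts was 8.44 (95% exact interval 5.38 to 13.9, counting error only), with 117 of the 206 co-culture counts in MC2. Without MC2 the log2 fold change was 2.31 (adjusted p = 0.143), and without MC1 it was 3.48 (adjusted p = 0.126). Without MO2 and MC3 it was 3.64 (adjusted p = 0.0792).

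The co-culture counts of Slc2a6 were spread over forms of different length. Slc2a6-202 (1887 bases) held 20.4 of the 49 counts in MC1, 59.1 of 117 in MC2 and 23.9 of 40 in MC3, while per length most of the signal lay on 2 short forms. Slc2a6-204 (668 bases) read 0.998, 3.95 and 0.890 TPM in MC1 to MC3, and Slc2a6-206 (343 bases) read 0.0848, 3.59 and 0.808 TPM. Both were at or near 0 in MS-5 only. On the same TPM scale Slc2a6-202 read 0.00509, 0.238 and 0.111 TPM in MO1 to MO3 and 0.393, 1.48 and 0.683 TPM in MC1 to MC3. The longest coding form, Slc2a6-201 (2138 bases), was listed at 0.168 TPM in MO1 and at 0 in the other 5 libraries.

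**Figure D3:**
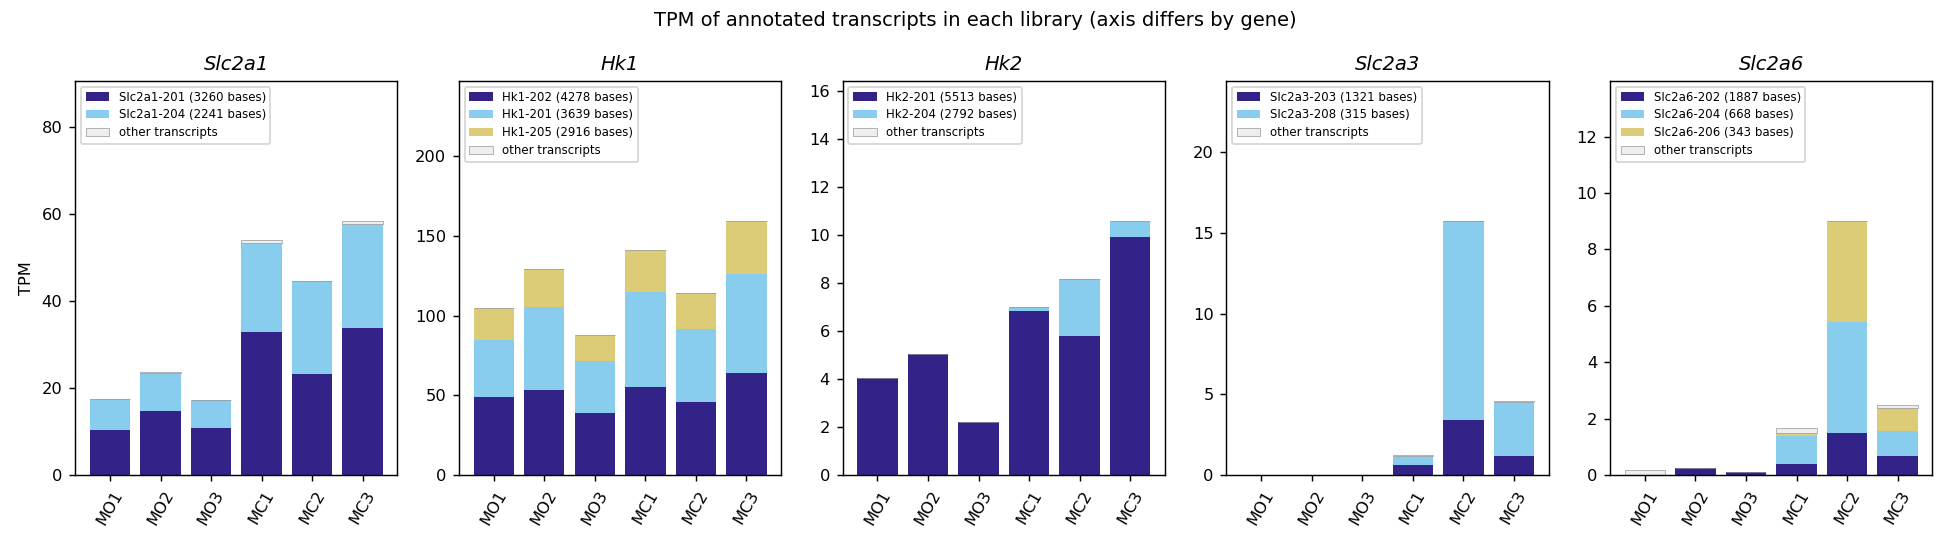
TPM of the main annotated transcripts of 5 genes in each library, stacked to the gene's total; each panel has its own axis from 0. Both Slc2a1 transcripts are higher in co-culture, Hk2-204 appears mainly in MC2, and the short transcripts of Slc2a3 and Slc2a6 take most of their TPM in MC2.

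The 4 members that rose fell into a pair that did not stand out in MC2, Slc2a1 and Hk2, and a pair that did. Slc2a1 still differed between MC1 and MC3, at 134 and 92.2 CPM. For each gene, its CPM in MC2 less the mean of MS-5 only was set against the same quantity averaged over MC1 and MC3, as an MC2 excess. This ratio was 1.00 for Slc2a1 and 1.16 for Hk2, against 5.47 for Slc2a3 and 4.31 for Slc2a6. It was 0.94 for Hk1 and 3.19 for Slc2a4. It was 6.41 for Slc2a8, whose groups overlapped, so that the ratio rests there on small differences. For the 8 leukocyte markers past the count filter it had a median of 6.33 and ran from 4.00 to 7.31. Several of these markers passed the filter only through co-culture, so the range describes those genes and sets no standard. Of the 7 markers below the filter, all at few counts, it was 0.521 for Elane, 3.66 for Itgam, 11.7 for Kit and -2.69 for Csf3r. The means of the other 3 were lower in co-culture, at 0.242 and 0.158 CPM for Cd33, 0.141 and 0.116 CPM for Cd34 and 0.056 and 0.037 CPM for Flt3 in MS-5 only and co-culture. The deposited values come from a mouse index, and the part of RNA from SKM-1 cells in the counts of these members was not tested.

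**Figure D4:**
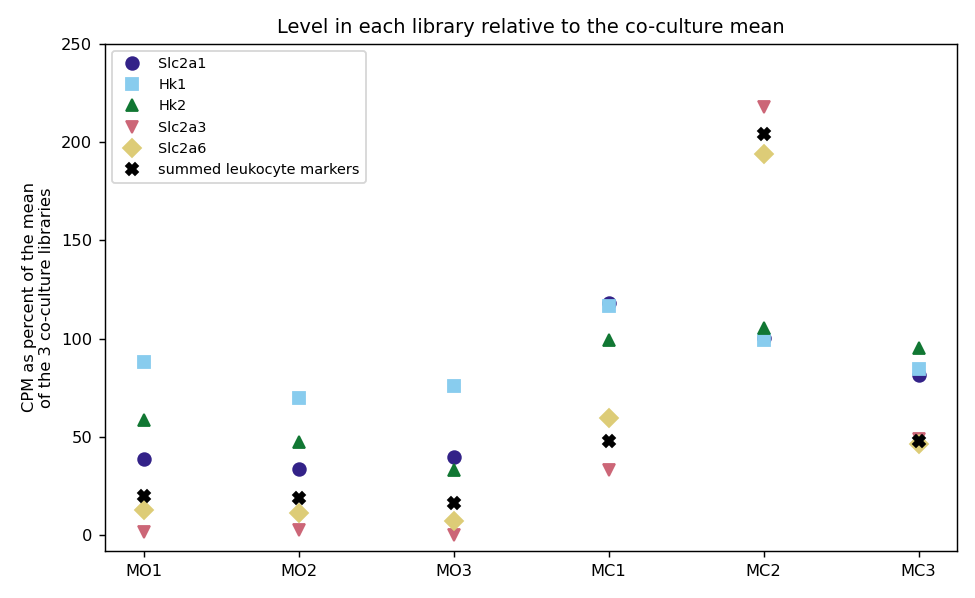
CPM of 5 members and the summed CPM of the 15 leukocyte markers in each library, as a percent of the mean of the 3 co-culture libraries. In MC2 the leukocyte sum stands at 204%, Slc2a3 at 218% and Slc2a6 at 194%, while Slc2a1, Hk1 and Hk2 lie between 99.1% and 105%.

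Slc2a4 encodes GLUT4, the insulin-responsive transporter of muscle and fat (chr11:69942539-69948188, minus strand). It had 5, 21 and 14 estimated counts in MO1 to MO3 and 21, 34 and 32 in MC1 to MC3. The groups overlapped in CPM, with means of 0.501 ± 0.261 and 0.995 ± 0.390 (SD, n = 3) and a log2 fold change of 0.97 (SE 0.58, edgeR adjusted p = 0.537). The difference was less than 2 times its standard error.

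Slc2a8 encodes GLUT8, a transporter of internal membranes (chr2:32972990-32982083, minus strand), and had the second highest mean TPM of the member transporters in both groups, although in MC2 Slc2a3 read higher, at 15.8 against 12.4 TPM. Of that Slc2a3 value, 12.4 TPM lay on Slc2a3-208, a form of 315 bases, on 39.2 estimated counts. In estimated counts of the whole gene, MC2 had 131 for Slc2a3 and 562 for Slc2a8. Slc2a8 read 11.9, 13.6 and 13.1 TPM in MO1 to MO3 and 14.5, 12.4 and 15.0 TPM in MC1 to MC3. The groups overlapped, with a log2 fold change of 0.12 (SE 0.24, edgeR adjusted p = 0.932), and the sign turned without MO2 (-0.033) or without MC1 (-0.0054).

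Slc2a10 encodes GLUT10 and Slc2a12 encodes GLUT12. Slc2a10 (chr2:165503787-165519917, plus strand) read 0.733 ± 0.122 TPM in MS-5 only and 0.675 ± 0.315 TPM in co-culture (SD, n = 3), with a log2 fold change in counts of 0.05 (SE 0.32, edgeR adjusted p = 0.983). Slc2a12 (chr10:22645011-22704285, plus strand) had 5, 4 and 3 estimated counts in MO1 to MO3 and 2, 7 and 2 in MC1 to MC3, below the count filter. It shares 8.97% of its 31-base words with Tbpl1, which overlaps it on the other strand, so that its counts are uncertain.

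The order of the members per length was set by Hk1, Slc2a1, Slc2a8 and Hk2 in both groups, from the highest to the 4th. In MS-5 only each of these 4 was apart from the next in all 3 libraries, and mean TPM fell from 107 ± 20.8 for Hk1 to 19.5 ± 3.57 for Slc2a1, 12.9 ± 0.870 for Slc2a8 and 3.77 ± 1.43 for Hk2 (SD, n = 3). Slc2a10, Slc2a4 and Slc2a6 came next, and neighbours among them overlapped. Slc2a12, Hkdc1 and Slc2a3 were the lowest and also overlapped as neighbours. In co-culture Hk1 stood at 138 ± 22.6, Slc2a1 at 52.4 ± 7.03, Slc2a8 at 14.0 ± 1.36 and Hk2 at 8.59 ± 1.84 TPM. Slc2a3 moved from the last to the 5th place there, at 7.19 ± 7.61 TPM, and Hk2, Slc2a3 and Slc2a6 overlapped as neighbours. Of this Slc2a3 mean, 5.43 TPM lay on Slc2a3-208 (315 bases), where few counts give a high value per length.

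The transporter family was then compared as a whole, to ask how much of its TPM each gene held. Summed over the 12 Slc2a genes looked up, TPM was 39.2, 54.2 and 42.3 in MO1 to MO3 and 82.9, 92.4 and 98.0 in MC1 to MC3. The sum did not overlap between groups (45.2 ± 7.95 against 91.1 ± 7.65, SD, n = 3, exact permutation p = 0.1, the smallest possible). Slc2a1 held 44.9%, 43.6% and 41.1% of it in MO1 to MO3 and 65.2%, 48.4% and 59.7% in MC1 to MC3. Its share was higher in each co-culture library and lowest among them in MC2, with a mean difference of 14.5 percentage points (exact permutation p = 0.1). With Slc2a3 and Slc2a6 taken out of the sum, an alternative added after the values were seen, the difference was 22.6 points.

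In MC2, Slc2a3 held 17.0% and Slc2a6 held 9.75% of the family's TPM. In estimated counts MC2 had 131 for Slc2a3 and 117 for Slc2a6, against 2727 for Slc2a1. The log2 ratio of Slc2a1 to Slc2a3, with 0.5 TPM added to each, was 5.14, 5.52 and 5.16 in MO1 to MO3 and 4.98, 1.48 and 3.54 in MC1 to MC3. The mean difference was -1.94, and without MC2 it was -1.02. It is given as a description, because Slc2a3 was at or near 0 in MS-5 only, where the added 0.5 TPM sets the ratio. Counted on transcripts annotated as protein-coding only, the difference turned to 1.29, since the Slc2a3 signal lay on transcripts annotated otherwise.

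**Figure D5:**
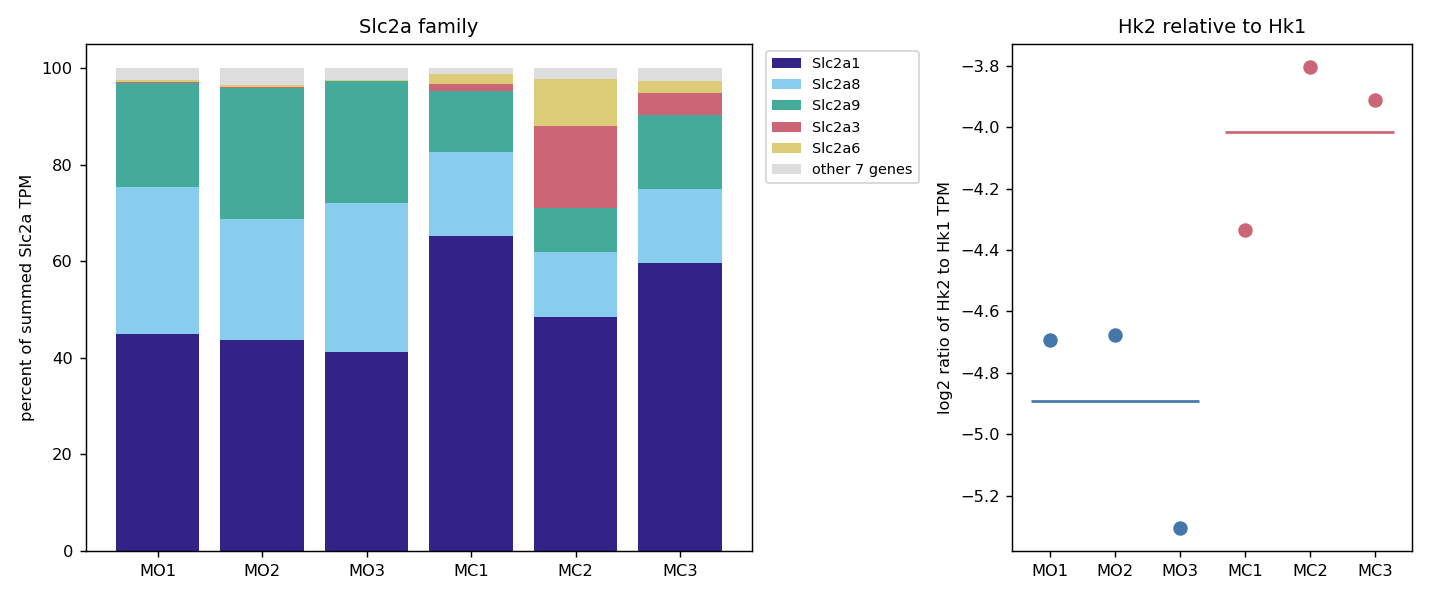
Left, percent of the summed Slc2a TPM held by each gene in each library; right, log2 ratio of Hk2 to Hk1 TPM (blue, MS-5 only; red, co-culture; the line is the mean of 3 libraries). Slc2a1 takes 41.1% to 44.9% in MS-5 only and 48.4% to 65.2% in co-culture, and the log2 ratio lies from -5.30 to -4.68 and from -4.34 to -3.80.

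Other genes of sugar entry were examined from fixed lists. Of 12 other sugar transporter genes, 2 passed the count filter and 0 were called by edgeR or by DESeq2 (0 at an unadjusted edgeR p under 0.05). Slc2a9, which encodes a urate and hexose transporter, held 21.7% to 27.2% of the family TPM in MS-5 only and 9.24% to 15.2% in co-culture. The log2 fold change of this gene was -0.04 (SE 0.14, edgeR adjusted p = 0.965). Slc50a1, a sugar efflux transporter, had a log2 fold change of 0.24 (adjusted p = 0.575).

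Of 20 listed genes on or near the glucose 6-phosphate route, 17 were tested, 1 was called higher and 0 lower. The median log2 fold change was 0.11. The list is wider than glucose 6-phosphate itself, since it holds kinases of other sugars (Khk, Galk1, Galk2 and Nagk) and also Gfpt1, Gfpt2, Mpi and Ugp2. The one called was H6pd, the glucose 6-phosphate dehydrogenase of the endoplasmic reticulum, which rose from 106 ± 6.79 to 159 ± 7.33 CPM (SD, n = 3, log2 fold change 0.58, SE 0.12, edgeR adjusted p = 0.0842). Gpi1, the isomerase that takes glucose 6-phosphate into glycolysis, had 571, 363 and 555 CPM in MO1 to MO3 and 1324, 1104 and 803 CPM in MC1 to MC3. These groups did not overlap, but the log2 fold change of 1.12 missed the threshold (SE 0.29, edgeR adjusted p = 0.121). Pgm1 (1.03, adjusted p = 0.104) and Slc37a4 (0.78, adjusted p = 0.125) likewise had groups apart and missed it. The groups of 4 of the 17 were apart upward and of 1 downward, against 11.6% and 9.6% of all genes. Gpi1, Pgm1 and Slc37a4 were singled out after their values were seen. Without MO2 and MC3 4 of the 17 were called, with the covariate 7 and with DESeq2 4, where 1702, 3999 and 1268 of all genes were. The 1 call of 17 stands beside 4.38% of all genes.

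A list of 25 genes held regulators of glucose uptake and some genes of later glucose handling, namely Tigar, Gckr, Vdac1 and Vdac2. Of these 25, 23 were tested and 0 were called by edgeR, with 1 at an unadjusted p under 0.05 and 1 called by DESeq2. The lowest p was that of Tigar, a fructose bisphosphatase that opposes glycolysis, with a log2 fold change of -0.66 (SE 0.18, adjusted p = 0.129). Txnip, which promotes internalisation of GLUT1, had a log2 fold change of 0.98 (SE 0.45, adjusted p = 0.397). Its level was 132, 336 and 206 CPM in MO1 to MO3 and 301, 343 and 683 CPM in MC1 to MC3, with MO2 and MC3 the highest of their groups. Insr, the insulin receptor gene, had a log2 fold change of 0.56 (SE 0.27, adjusted p = 0.427). Without MO2 and MC3 5 of the 23 were called, where 1702 of all genes were, and with the covariate 8 were, where 3999 of all genes were.

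Of the 12 later glycolysis genes, 2 were called higher and 0 lower, where 3.71% and 0.666% of all genes were. Without MO2 and MC3 10 were called, with the covariate 12 and with DESeq2 7, all of them higher, where 1087, 1835 and 910 of all genes were called higher. The list had a median log2 fold change of 0.94 against -0.02 over all genes. Pfkl, the liver-type phosphofructokinase, had a log2 fold change of 1.60 (SE 0.23, edgeR adjusted p = 0.0734) and an MC2 excess of 0.94. Eno2, the neuronal enolase gene, had a log2 fold change of 5.18 (SE 0.99, adjusted p = 0.0745) with an MC2 excess of 7.15. It had 7, 19 and 6 counts in MO1 to MO3 and 175, 803 and 160 in MC1 to MC3, and like Slc2a3 and Slc2a6 it passed the count filter only through co-culture, so that its direction was set by the filter.

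The genes whose profile over the 6 libraries was most like that of Slc2a1, among 9075 genes of at least 10 CPM, were Sdc4 (Pearson r = 0.998), P4ha1 (0.998), Pfkl (0.997), Il4ra (0.996) and Syt17 (0.996). For Hk2 they were Pcdh19 (0.992), Zfp553 (0.989), Krt80 (0.974), Csrnp1 (0.970) and Ets1 (0.970). The 2 lists shared no gene, and r between Slc2a1 and Hk2 was 0.890. These correlations describe log2 CPM over 6 libraries that differ by group. A gene with a large group difference can thus correlate with the member. The genes listed for Slc2a1 had log2 fold changes of 0.81 to 1.60 (edgeR adjusted p = 0.0734 for each). Those listed for Hk2 had 0.28, 0.25, 0.81, 0.70 and 0.21 in the order given, and none was called (edgeR adjusted p from 0.124 to 0.503).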

How the data were processed

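Transcripts of MS-5 cells were measured in 3 libraries of MS-5 only and 3 of co-culture, grouped from the sample labels. The authors quantified the reads with kallisto 0.43.0 against a mouse GRCm38 cDNA index and deposited an estimated count, a TPM value, a length and an effective length per transcript, per library and with no filter. The deposited TPM are scaled within a library, and the estimated counts are not normalised. A human read could be counted where it resembled a mouse transcript. Of 118489 transcripts, 116728 matched GENCODE M21 by identifier and version, and the other 1761 (0.476% to 0.562% of counts) were left out.

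Gene values are the rounded sums of their transcripts. Of 35968 genes, 13221 passed filterByExpr and were compared with edgeR 4.0.16 (quasi-likelihood test, TMM, factors from 0.923 to 1.17, R 4.3.3), with a threshold of 0.1 on the adjusted p-value over all genes tested. Sleuth, used in the study, was not run. CPM are TMM-normalised. The SE of a fold change is its size over the square root of F. Shares and ratios used TPM and a two-sided exact permutation test over libraries, whose smallest p-value is 0.1. The ratio of Slc2a1 to Slc2a3 had been planned without a pseudocount and needed 0.5 TPM because Slc2a3 was at 0 in MO3. Scripts were tested on simulated data. The members, gene lists and markers were chosen with earlier results of these data known. Every member was named, and from each pathway list every gene past the threshold, up to 6, or otherwise the 3 with the lowest p. Marker genes are named as examples, picked after their values were seen. Alternatives were DESeq2's size factors, library size, DESeq2 1.42.0, limma 3.58.1 on log2(TPM + 0.1, 0.5 or 1), a filter of 5 counts in 3 libraries, no filter, a replicate block, a term for MO2 and MC3 against the rest, omission of libraries and a threshold of 0.05. RefSeq promoters (250 bases before to 50 after the start site, GRCm38.p6) were matched by symbol. Protein sequences were not used here. One planned result is not reported here.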

Additional observations from a re-analysis of the deposited data

How the results depend on the processing

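Slc2a1 and Hk2 kept a positive log2 fold change under every alternative run, from 1.27 to 1.54 and 0.91 to 1.34, and their adjusted p passed 0.1 under 14 of 17 and 8 of 18 alternatives. Slc2a3 and Slc2a6, whose direction the count filter set, ran from 2.55 to 6.93 and 1.94 to 3.64 and passed under 12 of 17 and 11 of 17. The number of members called, 4 as reported, was 2 with limma on log2(TPM + 0.5), 1 with log2(TPM + 1), 0 at a threshold of 0.05, and 0 to 4 with 1 library left out. Over all genes, 579 calls became 1268 with DESeq2's Wald test, 356 and 224 with limma on log2(TPM + 0.5) and log2(TPM + 1), 3999 with the covariate, 1702 without MO2 and MC3, 2 at a threshold of 0.05, and 0 to 549 with 1 library left out. Glucose 6-phosphate route calls, 1 as reported, were 2 with DESeq2's size factors or limma, 3 with library size, 4 with DESeq2's Wald test or without MO2 and MC3, 7 with the covariate, 0 with the replicate block or at 0.05, and 0 to 2 with 1 library left out. Uptake regulator calls, 0 as reported, were 1 with DESeq2's Wald test, 8 with the covariate, 5 without MO2 and MC3 and 0 with any 1 library left out. Later glycolysis calls, 2 as reported, were 5 with library size, 7 with DESeq2's Wald test, 7 to 8 with limma, 12 with the covariate, 10 without MO2 and MC3, 0 at 0.05, and 0 to 3 with 1 library left out. The cause of these shifts was not tested. The log2 ratio of Slc2a1 to Slc2a3 was -3.82 on estimated counts and 1.29 on protein-coding transcripts, where most Slc2a3 signal is dropped. With 1 library left out it ran from -2.77 to -1.02, that of Hk2 to Hk1 from 0.67 to 1.03, and the Slc2a1 share from 10.8 to 19.2 points. With 1 library left out Slc2a8 ran from -0.033 (without MO2) to 0.30 and Slc2a10 from -0.085 (without MC3) to 0.18. Slc2a8 was also below 0 without MC1 (-0.0054), and Slc2a10 without MO1 (-0.022), without MO2 and MC3 (-0.065), and with limma on log2(TPM + 0.5), log2(TPM + 0.1) and log2(TPM + 1) (-0.10, -0.17 and -0.063).

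Deviations from the group means correlated at 0.53 for MO1 and MC1, -0.29 for MO2 and MC2 and -0.52 for MO3 and MC3. The highest value was 0.73, for MO2 and MC3. The correlations thus did not follow the replicate numbers. With MO2 and MC3 apart from the rest, they cannot settle whether these numbers mark shared cultures. With the replicate block 444 genes were called, 443 of them higher, and 3 members, Slc2a1 (adjusted p = 0.0468), Slc2a3 (0.0285) and Slc2a6 (0.092), with Hk2 at 0.109. Slc2a4, Slc2a6, Slc2a12 and Hkdc1 in all libraries and Slc2a3 in MS-5 only rest on few counts, so that depth limits them.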
